A study of Mus musculus with 96 samples.

Results

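The livers of pregnant mice whose light schedule was repeatedly advanced were compared with those of pregnant mice on a fixed schedule. The 24 libraries compared are all maternal livers of the series, 12 from shifted mothers and 12 from control mothers, out of 96 libraries in all. Shifted mothers were C57BL/6J females whose light phase was moved 8 h earlier every 5 days while they were pregnant, and control mothers were C57BL/6J females kept on a constant cycle of 12 h light and 12 h dark. Each arm held 3 libraries at each of 4 times, ZT0, ZT6, ZT12 and ZT18, where zeitgeber time (ZT) is the number of hours after lights on. The remaining libraries came from fetal livers of both kinds of mother and from their male offspring, and the 24 fetal libraries are used at the end for 1 comparison. The sources used here give neither the day of gestation nor the interval between the last advance and sampling, and do not say whether replicates are separate animals, so p-values measure the spread between these libraries. The question was which genes differed in level between shifted and control mothers when the 4 times were averaged.

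The liver keeps time with a feedback loop in which Arntl (also called Bmal1) and Clock drive the Per and Cry genes, whose products repress them. It follows both the light cycle, through the brain, and the time of feeding, and its output includes genes of lipid, bile acid and drug metabolism. In pregnancy the maternal liver grows, and hepatocytes enter the cell cycle.

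Values are FPKM, fragment counts scaled to transcript length and to library depth, divided by a scaling factor per library, and log2 changes are shifted minus control on log2(FPKM + 1), which understates the change of weakly expressed genes. Depth, estimated from the value that 1 fragment contributes in weakly covered genes, was 38.1 to 51.6 M fragments in shifted and 36 to 50.2 M in control mothers. The 20 most abundant genes held 37.2% to 47.6% of summed FPKM in shifted and 41% to 48.4% in control mothers. Shifted ZT18 replicate 3 stood furthest from its arm, with a median correlation of 0.954 to the other shifted libraries, against at least 0.966 for the rest of its arm and 0.974 within control mothers. Hepatocyte markers summed to 93303 to 171696 FPKM in shifted and 118067 to 162008 in control mothers, and each of 10 placental and decidual markers was below 1 FPKM in every library. Each arm came in its own table, so a difference between tables that affects single genes cannot be told apart from a difference between arms. These are bulk livers, in which fewer cells of a type and less RNA per cell cannot be told apart.

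Of 10384 genes tested, 871 (8.39%) differed at an adjusted p under 0.05 in limma, 359 (3.46%) higher and 512 (4.93%) lower in shifted mothers. Most of these differences were small. The median fold was 1.24, 780 genes changed by less than 1.5-fold, and 22 by more than 2-fold. At all 4 times 674 of the 871 had the sign of their mean change, and in 213 of them each of the 12 shifted libraries lay on that side of the control mean of its time. The number of calls varied with the time of day. Tested at single times, 145 genes (1.40%) differed at ZT0, 26 (0.250%) at ZT6 and 342 (3.29%) at ZT18, while at ZT12 limma called 0 (0%), with 611 genes at an unadjusted p under 0.05. The arm by time interaction, an F test with 3 degrees of freedom, called 175 genes (1.69%), of which 79 were among the 871. Without the ZT18 libraries the level comparison called 94 genes, without ZT0 225 and without ZT12 452, against 1039 without ZT6.

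**Figure D1:**
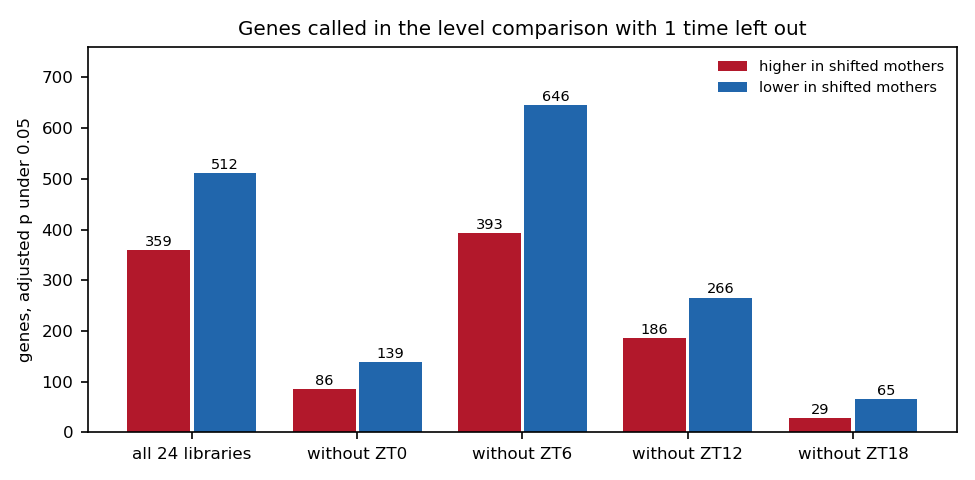
Genes called in the level comparison (limma, adjusted p under 0.05) from all 24 libraries and with the libraries of 1 time left out, as bars of the number of genes higher (red) and lower (blue) in shifted mothers. The bars are lowest without ZT18, at 29 higher and 65 lower, against 359 and 512 with all libraries.

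DNA replication genes, among them Mcm7, Prim1 and Rrm1, were lower in shifted mothers at ZT18. Of 25 measured genes of this list, 16 (64%) fell and 0 rose in the level comparison, with a median log2 change of -0.32 against -0.0014 over all genes tested. Of these 16, 8 reached the filter on low values (1 FPKM in at least 3 libraries) in control libraries alone, Mcm5, Mcm2, Mcm4, Cdc45, Gins2, Lig1, Pold1 and Uhrf1. Entry in that way favours a fall, so the counts of this list are not read as support. The values of these 8 genes are given with no test. The other 8 reached the filter in each arm. Over all genes tested, 52 of the 512 lower calls reached it in control libraries alone. So did 143 genes that were not called and 0 that were called higher. Tested at ZT18 alone, limma called 19 of 25 lower, with a median log2 change of -1.33. The 25 include the 8 genes named above, so this count, this median and the sums below are not read as support either. At ZT0, ZT6 and ZT12 limma called 0 of the 25. There 2, 0 and 0 had an unadjusted p under 0.05, and the 2 at ZT0 were higher in shifted mothers. Summed over the list, the livers held 59.7, 80.2 and 81.9 FPKM at ZT18 in shifted mothers (lowest, median and highest of 3), against 174, 176 and 183 in control mothers. At the other times the shifted libraries ran from 59.9 to 105 FPKM and the control libraries from 51.8 to 97.2. At ZT18 control livers thus lay above those of every other time, and shifted livers did not.

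Among the subunits of the replicative helicase, Mcm5 was at 0.173, 0.506 and 0.192 FPKM in the 3 shifted ZT18 libraries, against 7.77, 8.28 and 6.82 in the control ones. Over all 12 libraries it ran from 0.158 to 1.58 FPKM in shifted (median 0.383) and from 0.233 to 8.28 in control mothers (median 0.726). The arms thus overlapped over the day but were far apart at ZT18. Of its libraries, 1 shifted and 4 control ones reached 1 FPKM. Mcm7, another helicase subunit, was at 2.84, 2.82 and 2.79 FPKM at ZT18 in shifted mothers, against 13, 13.6 and 11.1 in control mothers, and fell by 0.54 on the log2 scale (SE 0.08, adjusted p = 0.00072), with a daily profile that differed (interaction, adjusted p = 0.000264). The 3 shifted values were close to one another and below every control value at that time. Prim1, the catalytic primase subunit that starts new strands, was at 0.882, 0.880 and 0.838 FPKM at ZT18 in shifted mothers, against 4.58, 6.20 and 5.08 in control mothers (level, log2 change -0.50, SE 0.08, adjusted p = 0.00209). Rrm1, the large subunit of ribonucleotide reductase, which makes deoxynucleotides, was at 1.28, 1.28 and 1.09 FPKM at ZT18 in shifted mothers, against 6.06, 5.88 and 4.78 in control mothers (level, log2 change -0.44, SE 0.07, adjusted p = 0.00185). At ZT18 each of these 4 genes had its lowest mean of the day in shifted livers and its highest in control livers.

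The list was not uniform. The helicase subunits Mcm6 (log2 change -0.79, adjusted p = 0.00346) and Mcm3 (-0.54, 0.00719) and the polymerase clamp Pcna (-0.30, 0.026) fell, whereas the replication factor Mcm10 (0.30, 0.138), the thymidine kinase Tk1 (0.32, 0.178) and the thymidylate synthase Tyms (0.24, 0.124) had positive changes that did not pass (limma). The list count held between 12 and 18 when any 1 library was left out, was 0 without ZT18, 8 with a filter of 1 FPKM in at least 12 libraries and 1 in an additive model of arm and time, whose residual spread takes in the difference between times.

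**Figure D2:**
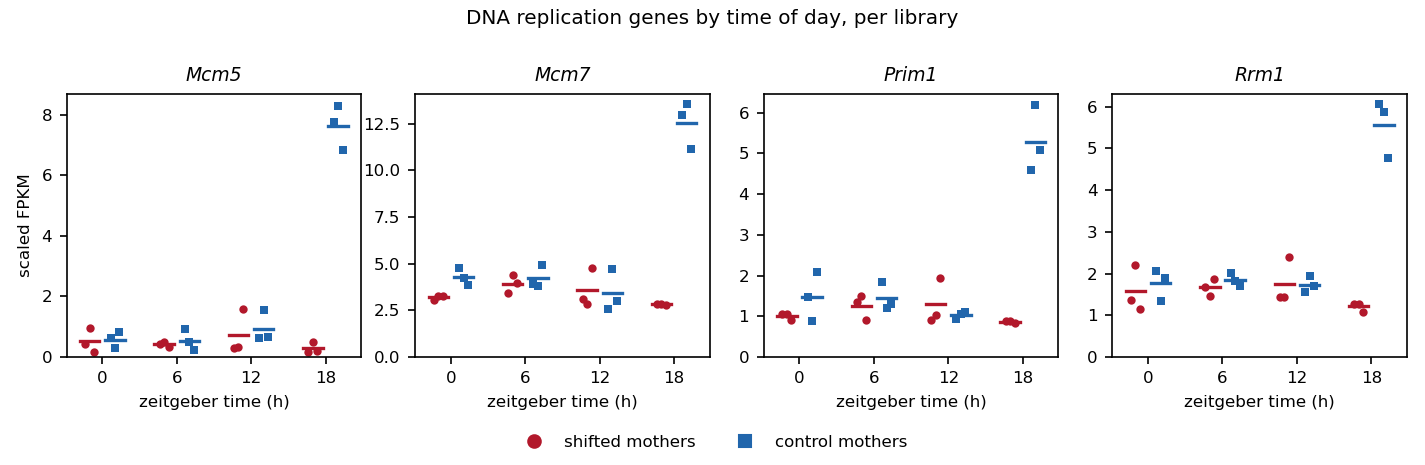
Scaled FPKM of Mcm5, Mcm7, Prim1 and Rrm1 in each library by zeitgeber time (hours), shifted mothers as red circles and control mothers as blue squares, with bars at the mean of 3 libraries. At ZT18 the control libraries of Mcm5 lie between 6.82 and 8.28 and the shifted ones between 0.173 and 0.506, while at the other times the arms lie close together.

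Promoters of these genes are shown because the members moved together at 1 time of day and because E2F factors, which drive genes of S phase, are known to bind such promoters. The sequences are RefSeq windows on GRCm38.p6 from 250 bases before to 50 after the gene start, written 5′ to 3′ on the gene's strand. Capitals mark matches on either strand to TTTGGCGC, TTTCCCGC, TTTCGCGC or TTCCCGCC, of which TTTCCCGC and TTCCCGCC can overlap, and where a gene had several windows the one with the most matches is given. The windows lie at chr8:75109259-75109558 (plus strand) for Mcm5, chr5:138171834-138172133 (minus) for Mcm7, chr10:128014965-128015264 (plus) for Prim1, chr7:102441445-102441744 (plus) for Rrm1 and chr1:128359656-128359955 (minus) for Mcm6.
Mcm5: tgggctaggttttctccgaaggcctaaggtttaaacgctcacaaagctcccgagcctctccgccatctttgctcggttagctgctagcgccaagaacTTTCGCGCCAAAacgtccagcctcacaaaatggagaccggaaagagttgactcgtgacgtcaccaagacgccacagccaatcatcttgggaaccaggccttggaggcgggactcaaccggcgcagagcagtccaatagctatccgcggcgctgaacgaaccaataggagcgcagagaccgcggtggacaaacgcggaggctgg
Mcm7: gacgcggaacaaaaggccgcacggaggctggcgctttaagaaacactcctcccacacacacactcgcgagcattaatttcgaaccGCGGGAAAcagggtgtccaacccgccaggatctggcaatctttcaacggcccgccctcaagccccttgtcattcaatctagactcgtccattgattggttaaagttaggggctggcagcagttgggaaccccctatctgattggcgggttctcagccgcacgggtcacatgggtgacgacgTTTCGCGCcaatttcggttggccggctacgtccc
Prim1: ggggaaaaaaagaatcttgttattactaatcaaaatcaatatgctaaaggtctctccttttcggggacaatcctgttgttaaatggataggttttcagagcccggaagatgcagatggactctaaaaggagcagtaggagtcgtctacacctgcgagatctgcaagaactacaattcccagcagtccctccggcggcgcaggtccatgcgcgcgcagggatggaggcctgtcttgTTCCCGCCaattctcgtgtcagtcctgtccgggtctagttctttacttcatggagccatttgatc
Rrm1: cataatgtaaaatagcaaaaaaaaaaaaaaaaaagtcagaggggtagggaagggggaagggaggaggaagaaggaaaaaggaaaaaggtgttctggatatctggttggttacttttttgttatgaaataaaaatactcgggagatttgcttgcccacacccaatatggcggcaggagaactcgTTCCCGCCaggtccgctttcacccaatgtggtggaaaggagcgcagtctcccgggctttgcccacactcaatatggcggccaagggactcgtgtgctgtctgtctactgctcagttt
Mcm6: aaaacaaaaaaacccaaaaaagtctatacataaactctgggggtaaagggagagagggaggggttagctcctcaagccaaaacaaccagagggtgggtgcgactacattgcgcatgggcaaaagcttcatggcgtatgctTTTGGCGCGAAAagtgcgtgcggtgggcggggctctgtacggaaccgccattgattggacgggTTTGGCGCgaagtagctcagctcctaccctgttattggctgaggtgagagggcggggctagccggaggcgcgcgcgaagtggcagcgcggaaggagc
In Mcm5 the matches overlap in 1 run that begins 153 bases before the start, and in Mcm6 the first run begins 110 bases before it. The first 2 spellings were held by 6 of the 14 lower genes with a window (42.9%), against 1.8% of 27025 genes. The other 2 spellings were added after the windows had been read, and with them the counts were 10 of 14 (71.4%) and 4% of all genes. Among the 8 lower genes that reached the filter in each arm, all with a window, the first 2 spellings were in 4 (50%) and the 4 spellings in 6 (75%). Over the whole list, called or not, they were in 9 (36%) and 15 (60%) of 25 genes with a window. The CCAAT box (CCAAT, either strand) was in 11 of 14 (78.6%), against 41.1% of all genes, and the E-box CACGTG, bound by Clock and Arntl, in 1 of 14 (7.14%), against 8.09%. Over the whole list, called or not, the CCAAT box was in 16 of 25 (64%) and the E-box in 3 (12%). Among the 8 lower genes that reached the filter in each arm they were in 7 (87.5%) and 0. Of the 12 genes with the largest rises, 10 had a window, and of these 0 held the E-box and 0 the D-box TTATGTAA, letters found in 1.11% of all windows. These are descriptions of letters in a window, not of binding.

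Other cell cycle genes gave a mixed picture. Cdkn1a, the cyclin-dependent kinase inhibitor p21, ran from 0.569 to 12.0 FPKM in shifted mothers (median 1.44) and from 1.56 to 22.6 in control mothers (median 10.9). The arms overlapped over the day, but at ZT18 the 3 shifted values (0.821, 0.793 and 0.786) were far below the 3 control values (18.1, 19.6 and 21.5). Its level fell (log2 change -1.44, SE 0.26, adjusted p = 0.00383), the profile differed (interaction, adjusted p = 0.0238), and without ZT18 the level did not pass (adjusted p = 0.256). E2f1, an activator of S phase genes, fell by 0.27 on the log2 scale (adjusted p = 0.0287), with a change of -1.02 at ZT18 (adjusted p = 0.000306), but not without ZT18 (0.919) or with GC content and length trends removed, after which 0 of 13 genes of mitosis and the cyclins were called. Of 13 measured genes of mitosis and the cyclins, 1 (E2f1) fell and 0 rose, although each of the 13 had a negative change. Cdkn1b, the inhibitor p27, rose (log2 change 0.24, adjusted p = 0.0328), but not firmly. Its call was absent once ZT6, ZT12 or ZT18 was omitted, and dropping single libraries ended it 10 times out of 24. Cdkn1b also missed the threshold in values as deposited (0.117) and after removal of the GC content and length trends (0.0757).

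Of 12 measured clustered histone genes 6 (50%) fell and 0 rose, with a median log2 change of -0.34, and the count stayed between 5 and 8 in each fit with a library, a time or a setting changed. Tested at single times, limma called 2 lower at ZT18, 1 lower at ZT6 and 0 at ZT0 or ZT12. In the order of the day there were 5, 6, 6 and 8 lower at an unadjusted p under 0.05. In the same order the medians were -0.12, -0.46, -0.34 and -0.38, and at ZT0 5 of 12 changes were positive. The linker histone gene Hist1h1c ran from 2.75 to 16.9 FPKM in shifted mothers (median 8.76) and from 12.1 to 61.5 in control mothers (median 26.2). Shifted libraries were lower with some overlap, each below the control mean of its time (log2 change -1.41, SE 0.21, adjusted p = 0.00079). The H2B gene Hist1h2bk ran from 0.609 to 1.14 FPKM in shifted mothers (median 0.916) and from 1.18 to 2.17 in control mothers (median 1.45), with no overlap between the arms (log2 change -0.38, adjusted p = 0.0015). Hist1h2be (log2 change -0.48, adjusted p = 0.000181), Hist1h2bj (-0.76, 0.000372) and Hist1h4i (-0.57, 0.00143) fell in 12 of 12 libraries each. Histone genes are near-identical, mostly lack a poly(A) tail and were counted from poly(A) RNA, so reads could be divided among copies.

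Of 18 endothelial markers 9 (50%) fell and 0 rose, with a median log2 change of -0.22. At ZT0, ZT12 and ZT18 the medians were -0.64, -0.30 and -0.30, and at ZT6 the median was 0.13, with 16 of 18 markers higher than in control mothers, though limma called 0 of them there, with 2 at an unadjusted p under 0.05. At single times 8 were called lower at ZT0, 0 at ZT12, where 6 were lower at an unadjusted p under 0.05, and 4 at ZT18. Summed, they came to 80.5 to 97.7 FPKM at ZT0 in shifted mothers, against 126 to 155 in control mothers. At ZT6 the sums were 118 to 157 in shifted and 110 to 147 in control mothers, so that the arms overlapped. At ZT12 they were 97.6 to 118 in shifted and 147 to 156 in control mothers, and at ZT18 95.6 to 117 and 147 to 160, so that the arms stood apart at each time but ZT6.

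Kdr, the main VEGF receptor of endothelium, ran from 1.38 to 5.10 FPKM in shifted mothers (median 2.23) and from 2.56 to 5.06 in control mothers (median 4.04). The shifted values were lowest at ZT0 (1.38 to 1.64) and highest at ZT6, where 1 library reached 5.10 and the arms overlapped. Its level fell (log2 change -0.55, SE 0.11, adjusted p = 0.00546). Dnase1l3, a secreted nuclease made by sinusoidal endothelium, fell (log2 change -0.50, adjusted p = 0.000658) with a profile that differed (interaction, adjusted p = 0.00473), from -0.98 at ZT18 to 0.28 at ZT6. The water channel gene Aqp1 (log2 change -0.63, adjusted p = 0.00185), Oit3 (-0.40, 0.00383) and the C-type lectin gene Clec4g (-0.42, 0.00549) fell, while the scavenger receptor genes Stab1 (-0.09, 0.594) and Stab2 (-0.22, 0.0637) did not pass. Without ZT18 the list count was 1, without ZT0 2 and without ZT6 14, and with any 1 library left out it was 8 to 11.

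Macrophage and Kupffer cell markers had the same sequence of signs without a call. Of 16 markers limma called 0, and 15 had a negative change, with a median log2 change of -0.33 and 6 at an unadjusted p under 0.05. Over all genes tested, 2920 of 10384 had such a p. The list count was 6 lower without shifted ZT18 replicate 1 or without ZT6, and 3 in values as deposited or with a block for the replicate number. All 16 were lower in shifted mothers at ZT0 and at ZT18, with medians of -0.67 and -0.81, and 15 of 16 were higher at ZT6, with a median of 0.51. Their sum at ZT18 was 83.2 to 258 FPKM in shifted and 249 to 287 in control mothers, so that the libraries overlapped. The defining genes Clec4f (22.5 FPKM in shifted and 25.6 in control mothers on average), Adgre1 (2.44 and 3.63) and Csf1r (5.97 and 7.62) were expressed in both arms. Stellate cell and fibroblast markers gave 0 calls of 13, with a median of -0.06 and 1 at an unadjusted p under 0.05. The sampled share of these cell types was not measured, and its part in the lower endothelial genes was not tested.

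Of 20 extracellular matrix genes 4 (20%) fell and 0 rose. Col4a1 and Col4a2, the chains of basement membrane collagen, share a promoter region and fell together (log2 changes -0.39 and -0.39, adjusted p = 0.00648 and 0.00468), with changes of -1.10 and -0.94 at ZT0 and of 0.08 and -0.01 at ZT6. Their profiles differed between the arms (interaction, adjusted p = 0.0115 and 0.0301). Fibronectin, Fn1, a plasma and matrix protein made by hepatocytes, fell by 0.38 on the log2 scale (adjusted p = 0.0377), as did Tgfb1 by 0.28 (0.0385), but both calls ended without ZT0, ZT12 or ZT18. With 1 library left out, Fn1 and Tgfb1 lost their calls in 14 and 16 of 24 fits. The calls of Col4a1 and Col4a2 ended without ZT0 (adjusted p = 0.313 and 0.182) or ZT18 (0.103 and 0.111). With GC content and length trends removed 2 of the 20 genes were called lower, Col4a1 (0.0367) and Fn1 (0.0448), while Col4a2 (0.0969) and Tgfb1 (0.0546) did not pass.

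Scand1, which encodes a short SCAN domain protein (chromosome 2, 156311847 to 156312704, mm10), had the largest fall among the named genes. It ran from 0.446 to 3.89 FPKM in shifted mothers (median 1.20) and from 4.53 to 11.7 in control mothers (median 7.25). Every shifted library lay below every control library (log2 change -1.74, SE 0.19, adjusted p = 0.000111). The arms failed to overlap in 5 of 10384 genes (0.0482%). The others, named after their values were seen, were Hist1h2bk, the F-box gene Fbxl15 (log2 change -0.47, adjusted p = 0.000372), the actin-severing cofilin gene Cfl2 (0.27, 0.00131) and Erp44, a retention factor of the early secretory pathway (0.33, 0.00136). Erp44 was at 26.4 to 31.6 FPKM in shifted mothers (median 28.6) and at 18 to 24.9 in control mothers (median 22.7). Fbxl15 was at 0.633 to 1.17 FPKM in shifted mothers (median 0.883) and at 1.2 to 2.27 in control mothers (median 1.53). Cfl2 was at 15.1 to 17.9 FPKM in shifted mothers (median 16.8) and at 12.2 to 14.4 in control mothers (median 13.7). The arms were thus separate but close, with differences smaller than that of Scand1.

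Jund, Jun and Junb, which encode subunits of the transcription factor AP-1, fell. Jund ran from 2.25 to 8.41 FPKM in shifted mothers (median 4.11) and from 6.85 to 14.9 in control mothers (median 9.84), lower in 12 of 12 libraries with a narrow overlap (log2 change -1.0, SE 0.17, adjusted p = 0.00249). Jun ran from 0.901 to 3.90 FPKM in shifted mothers (median 1.92) and from 1.69 to 9.35 in control mothers (median 4.13), again lower in 12 of 12 libraries (log2 change -0.78, SE 0.14, adjusted p = 0.00395). Junb fell by 0.63 on the log2 scale (adjusted p = 0.0445) and lost the call in 17 of 24 fits with 1 library left out, without any 1 of the times, without the filter on low values (0.0736) and with a block for the replicate number (0.0571). They were 3 of the 15 measured immediate early genes (20%), of which 14 had a negative change and 0 rose. The zinc finger gene Zfp771 (log2 change -0.96, adjusted p = 0.000111) and Tpgs1, a subunit of the tubulin polyglutamylase complex (-0.93, 0.00189), fell in 12 of 12 libraries as well.

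GC content moved with these falls. Scand1, Jund, Zfp771 and Tpgs1 had a GC content of 68.4%, 67.1%, 68.7% and 65.3%, against a median of 49.6% over all genes. The genes called lower had a median GC content of 53.3% and those called higher one of 45.0%, and over the 10012 genes with an annotated transcript the Spearman correlation of log2 change was -0.22 with GC content and -0.15 with transcript length. Genes are not independent replicates, so these are descriptions. With smooth GC and length trends removed from each library, 778 genes were called, and of the 830 calls that could be tested this way 489 were called again in the same direction. The changes of Scand1, Jund, Zfp771 and Tpgs1 were then -1.27, -0.57, -0.43 and -0.66 (adjusted p = 3.63e-06, 0.00685, 0.0155 and 0.000924), whereas Junb and Cfl2 no longer passed (0.138 and 0.169). The part of GC content in the remaining changes was not tested.

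Of 17 heat shock and cold-inducible genes 3 fell (17.6%), Hspa1b by 0.60 (adjusted p = 0.0191), Hspa1a by 0.39 (0.0115) and the small chaperone gene Hspb1 by 0.48 on the log2 scale (0.0388), and 0 rose. Hspa1a reached the filter on low values in control libraries alone, so its fall is no support. The call of Hspb1 was lost in 12 of 24 fits with 1 library left out, without ZT0, ZT12 or ZT18 and without the filter (0.0643). That of Hspa1b was lost without ZT6 or ZT12. The list median was 0.03, and 9 of 17 changes were positive. Hspa1a and Hspa1b are near-identical, and their reads could be divided between them.

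Lipid genes moved one by one. Pnpla3, a lipase of lipid droplets that follows feeding, had the largest rise among the named genes. It ran from 0.719 to 42.3 FPKM in shifted mothers (median 12.5) and from 0.430 to 16.5 in control mothers (median 3.01), higher in 12 of 12 libraries than the control mean of the time (log2 change 1.5, SE 0.38, adjusted p = 0.021). Thrsp, a lipogenic regulator, ran from 96.4 to 1104 FPKM in shifted mothers (median 594) and from 15.3 to 1488 in control mothers (median 253). The highest value was a control one, and the rise (log2 change 1.35, SE 0.41, adjusted p = 0.0467) was not called in 17 of the 24 fits that omit a library, nor in any fit without 1 of the times. Acaca, the acetyl-CoA carboxylase that commits carbon to fatty acid synthesis, fell by 0.40 (adjusted p = 0.0326). Omitting ZT0, ZT6 or ZT18 ended the Acaca call, as did dropping a single library 9 times out of 24. After removal of the GC content and length trends Acaca did not pass (0.0703). Of 22 genes of fatty acid synthesis and desaturation these 3 were called (13.6%), and the median change was -0.02. Fitm2, which is needed to form lipid droplets, ran from 2.61 to 7.77 FPKM in shifted mothers (median 5.92) and from 6.74 to 15.3 in control mothers (median 9.23), and fell in 12 of 12 libraries (log2 change -0.81, SE 0.17, adjusted p = 0.00887).

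In fat oxidation and ketogenesis 1 gene was called, a share below that over all genes. Cyp4a14, a fatty acid hydroxylase induced by the nuclear receptor PPARα, ran from 20.4 to 198 FPKM in shifted mothers (median 89.1) and from 79.5 to 592 in control mothers (median 179), with overlap (log2 change -1.26, SE 0.34, adjusted p = 0.0282). Of the 32 genes it alone passed (3.12%), and 0 to 5 passed when 1 library was left out. Of the 32 changes 29 were negative, with a median of -0.17. Cyp4a10 (-0.59, 0.11) and the peroxisomal enzyme gene Ehhadh (-0.53, 0.0646) did not pass. Eci3, an enoyl-CoA isomerase outside the list, rose (log2 change 1.12, adjusted p = 0.0292). Cyp4a14 has close relatives in the Cyp4a cluster.

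Of 20 genes of lipoprotein assembly 4 rose and 1 fell (25%), counts that depended on the processing. They were 2 and 3 in values as deposited, 1 and 0 without the filter on low values, 2 and 0 with a block for the replicate number, and 3 and 0 with GC content and length trends removed. The median log2 change was 0.02, but -0.06 in values as deposited and -0.02 with the trends removed. Apoc1, a small apolipoprotein that restrains lipoprotein uptake, ran from 11187 to 22419 FPKM in shifted mothers (median 14238) and from 7617 to 11699 in control mothers (median 9941). The arms overlapped only slightly, and 12 of 12 libraries were higher (log2 change 0.54, SE 0.10, adjusted p = 0.00487). Apoa2 (log2 change 0.41, adjusted p = 0.0265), Apoc3, an inhibitor of lipoprotein lipase (0.45, 0.0484), and Apof (0.22, 0.0473) rose too. The high density lipoprotein receptor gene Scarb1 fell (-0.34, 0.0464), a call lost in 17 of 24 fits with 1 library left out, without the filter (0.065), with the block (0.05) and with the trends removed (0.0614). The call of Apof was lost in 18 of 24, and Apob, the structural protein of very low density lipoprotein, did not pass (-0.14, 0.765). The list count was 0 without ZT0. It was 4 to 6 without shifted ZT0 replicate 1 or 2, shifted ZT18 replicate 1 or 2 or control ZT0 replicate 2, and 1 to 3 without any other single library.

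**Figure D3:**
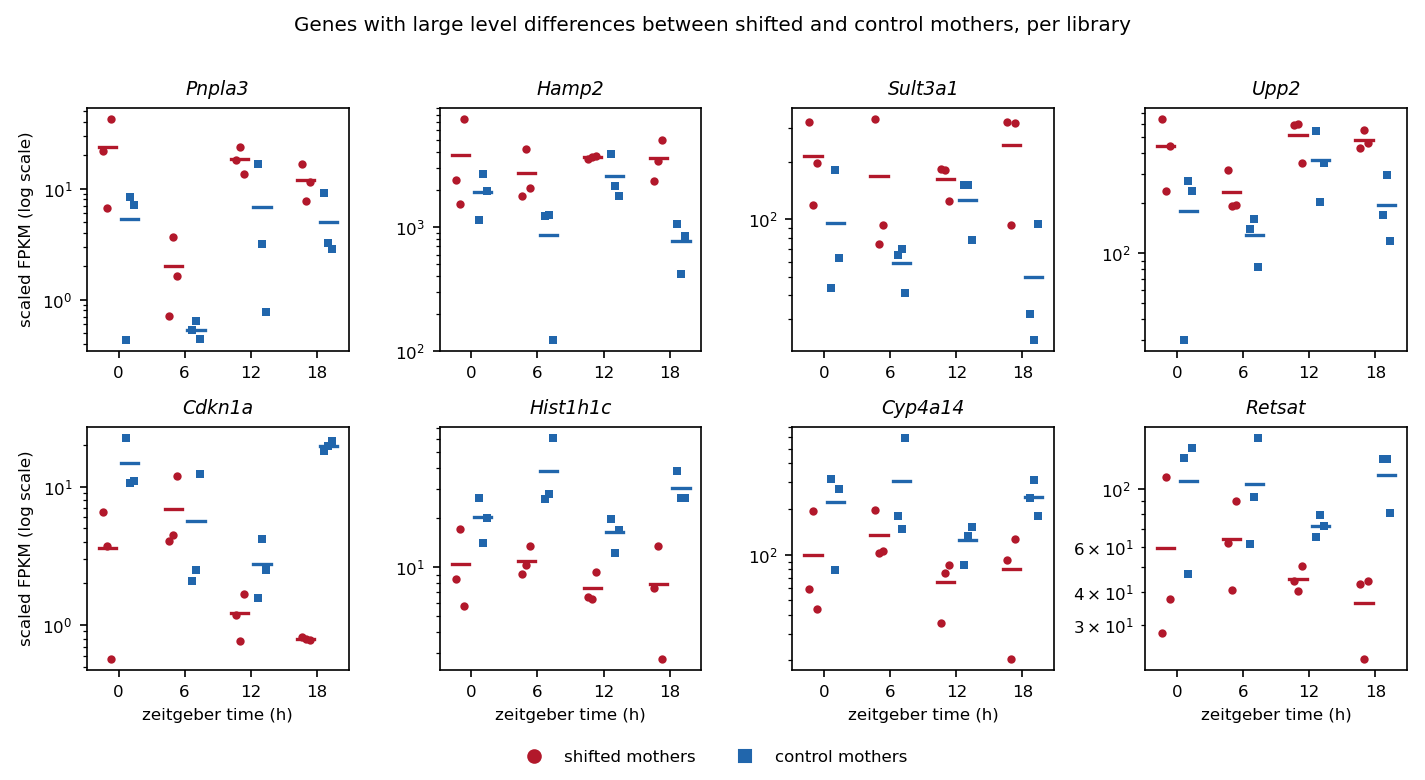
Scaled FPKM (log scale) of Pnpla3, Hamp2, Sult3a1, Upp2, Cdkn1a, Hist1h1c, Cyp4a14 and Retsat in each library by zeitgeber time (hours), shifted mothers as red circles and control mothers as blue squares, with bars at the mean of 3 libraries. The arms overlap in each gene over the day, and Cdkn1a at ZT18 shows 3 shifted values from 0.786 to 0.821 against 3 control values from 18.1 to 21.5.

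In the bile acid list 3 of 21 genes fell and 1 rose (19%). Cyp8b1, the sterol hydroxylase needed for cholic acid, ran from 29.4 to 213 FPKM in shifted mothers (median 62.3) and from 66.4 to 209 in control mothers (median 113), and fell (log2 change -0.66, SE 0.15, adjusted p = 0.0135). Its profile differed (interaction, adjusted p = 0.0427), with shifted livers at 180 ± 30 FPKM at ZT6 and 47.0 ± 9.6 at ZT18 (SD, n = 3), against 122 ± 37 and 128 ± 19 in control livers. Cyp27a1, which opens the alternative pathway, fell slightly (log2 change -0.28, adjusted p = 0.041), and Abcc3, a basolateral exporter of conjugates, fell by 1.0 (0.0328). The Cyp27a1 call was absent whichever time was omitted, and dropping single libraries ended it 15 times out of 24. Cyp39a1, an oxysterol hydroxylase, fell by 0.95 on the log2 scale (adjusted p = 0.0205). Slco1a1, an uptake transporter of organic anions, rose (log2 change 0.86, adjusted p = 0.0265).

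Enzymes of retinoids, nucleosides and conjugation were among the larger changes. Retsat, which saturates retinol, ran from 22.2 to 112 FPKM in shifted mothers (median 43.7) and from 47.2 to 158 in control mothers (median 87.3), and fell in 11 of 12 libraries (log2 change -0.98, SE 0.23, adjusted p = 0.0175). Cyp26a1, which clears retinoic acid, rose (log2 change 1.02, adjusted p = 0.0364), with a call lost in 13 of 24 fits with 1 library left out. Upp2, a uridine phosphorylase of the liver, ran from 191 to 641 FPKM in shifted mothers (median 434) and from 29.9 to 540 in control mothers (median 186), higher in 12 of 12 libraries with overlap (log2 change 1.13, SE 0.30, adjusted p = 0.0274). Sult3a1, a sulfotransferase typical of female mouse liver, ran from 74.5 to 334 FPKM in shifted mothers (median 181) and from 23.3 to 182 in control mothers (median 67.7), also higher in 12 of 12 (log2 change 1.31, SE 0.31, adjusted p = 0.0177).

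Of 36 conjugation genes 2 rose (5.56%), Sult3a1 and the microsomal glutathione transferase gene Mgst1 (log2 change 0.41, adjusted p = 0.0207). In the drug-metabolizing cytochrome P450 list Cyp2g1 rose (0.75, 0.032) and Cyp2c29 fell (-0.73, 0.0383), of 26 measured (7.69%). With 1 library left out, Cyp2g1 lost its call in 7 of 24 fits and Cyp2c29 in 13. Both calls also ended without ZT12, without ZT18 and without the filter on low values (0.0556 and 0.0631), and that of Cyp2c29 without ZT0. Cyp2c29 and Sult3a1 have close relatives among which reads could be divided. Of 17 oxidant defence genes 2 fell (11.8%), Ephx1, the microsomal epoxide hydrolase (-0.49, 0.0213), and Srxn1, sulfiredoxin (-0.34, 0.00923). Other large changes were the rises of Ccrn4l, the rhythmic gene nocturnin (1.16, 0.0426), the crystallin gene Crybb3 (1.24, 0.0249), Fam47e (1.16, 0.0177) and Dnajc12, a cochaperone of aromatic amino acid hydroxylases (1.07, 0.0478), and the falls of Erdr1 (-1.56, 0.0485) and the murinoglobulin gene Mug1 (-0.87, 0.0208). With 1 library left out, Erdr1, Ccrn4l and Dnajc12 lost their calls in 18, 17 and 16 of 24 fits.

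Among secreted and hormone-related genes a hepcidin gene rose. Hamp2 ran from 1527 to 7392 FPKM in shifted mothers (median 3466) and from 122 to 3865 in control mothers (median 1235), higher in 11 of 12 libraries with overlap (log2 change 1.42, SE 0.35, adjusted p = 0.0196). It is near-identical to Hamp, the hepcidin that controls iron export, and reads could be divided between them. Hamp itself ran from 133 to 2923 FPKM in shifted mothers (median 402) and from 6.22 to 948 in control mothers (median 156), a change that did not pass (1.56, SE 0.61, adjusted p = 0.102). Hamp2 was the 1 gene called of 18 in the iron handling list (5.56%). Ghr, the growth hormone receptor, ran from 552 to 1599 FPKM in shifted mothers (median 950) and from 300 to 1202 in control mothers (median 569), and rose in 11 of 12 libraries (log2 change 0.80, SE 0.20, adjusted p = 0.0221). Igfbp4, a binding protein of insulin-like growth factors, rose by 0.30 (adjusted p = 0.0465), a call lost in 18 of 24 fits with 1 library left out, without any 1 of the times, without the filter on low values (0.065), in values as deposited (0.146) and with the replicate block (0.0561). Mup21, a major urinary protein gene with many near copies, ran from 25.1 to 83.4 FPKM in shifted mothers (median 39.8) and from 10 to 41.6 in control mothers (median 20.6), higher in 12 of 12 (log2 change 1.0, SE 0.18, adjusted p = 0.00349). Gdf15, a stress hormone that curbs feeding, ran from 1.18 to 3.24 FPKM in shifted mothers (median 1.55) and from 1.74 to 5.70 in control mothers (median 3.69), and fell in 11 of 12 (log2 change -0.72, SE 0.11, adjusted p = 0.00131).

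The metallothionein genes Mt1 and Mt2, which bind zinc and respond to glucocorticoids, rose together. Mt2 ran from 278 to 1985 FPKM in shifted mothers (median 758) and from 225 to 917 in control mothers (median 397), with overlap (log2 change 0.89, SE 0.17, adjusted p = 0.00548). It was higher in shifted livers at ZT18 (1439 ± 710 against 272 ± 63 FPKM, SD, n = 3) and lower at ZT12 (456 ± 170 against 833 ± 99), and its profile differed (interaction, adjusted p = 0.00491). Mt1 rose by 0.66 (adjusted p = 0.0426), a call that ended in 17 of 24 fits with 1 library left out. It also ended without the filter on low values (0.0705), in values as deposited (0.055) and with the replicate block (0.0552). With GC content and length trends removed Mt1 did not pass either (0.0593). The zinc importer gene Slc39a4 fell (-0.54, 0.00621), and so did the copper exporter gene Atp7b (-0.40, 0.032). Of 25 acute phase genes, Mt1, Mt2 and Saa4 rose (12%), and Saa4 is the constitutive member of its family. Of the 25 changes 16 were negative, with a median log2 change of -0.09. Cebpd, a glucocorticoid-responsive transcription factor, fell (-0.43, 0.00257) but reached the filter on low values in control libraries alone, so that its fall is no support. The list of 18 genes of the glucocorticoid receptor and its targets held 2 rises and 1 fall (16.7%). These were Mt1, Mt2 and Cebpd again, with no further gene called.

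Cytosolic ribosomal protein genes were slightly higher in shifted mothers. Of 53 members 13 (24.5%) rose and 0 fell, with a median log2 change of 0.21, and 44 of 53 changes were positive. At ZT0 51 of 53 were positive, with a median of 0.37, and at ZT12 29 of 53, with a median of 0.002, but limma called 0 at any single time, and the numbers at an unadjusted p under 0.05 were 32 for ZT0, 0 for ZT6, 1 for ZT12 and 8 for ZT18. Rpl14 ran from 133 to 275 FPKM in shifted mothers (median 178) and from 127 to 159 in control mothers (median 143), with overlap (log2 change 0.38, SE 0.09, adjusted p = 0.0208). Rpl23 (0.37, 0.0155) and Rps25 (0.35, 0.0323) rose as well. This count depended on the processing. It was 0 in values as deposited, 0 without ZT0 or without ZT18, 2 without ZT12 and 6 with a block for the replicate number. With 1 library left out it ran from 2 to 20. It was 2 to 5 without any 1 of the control libraries except ZT6 replicate 1, and without shifted ZT0 replicate 1 or 3, ZT6 replicate 2, ZT12 replicate 2 or 3 or ZT18 replicate 3, the library furthest from its arm. It was 7 without shifted ZT12 replicate 1, 8 without shifted ZT6 replicate 3 and 20 without shifted ZT6 replicate 1.

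Genes of protein entry into the secretory pathway had 5 rises and 0 falls among 37 (13.5%), with a median log2 change of 0.14. They were Ssr4 and Ssr1 of the translocon-associated complex (0.28, adjusted p = 0.0155, and 0.31, 0.0288), the channel subunit gene Sec61g (0.41, 0.0241) and the signal peptidase genes Sec11a and Sec11c (0.19, 0.0303, and 0.28, 0.0387). At ZT6 36 of 37 had a positive change and at ZT18 18 of 37. Xbp1, a transcription factor of the unfolded protein response, rose by 0.31 (adjusted p = 0.0327) and was called alone among 27 genes of that response (3.70%). In values as deposited the count of the secretory list was 0, and so it was without ZT18, while it was 1 without ZT0 or ZT12. It was 2 without control ZT12 replicate 3 or control ZT18 replicate 3, 3 without shifted ZT12 replicate 3, control ZT0 replicate 1 or control ZT12 replicate 2, and 8 without shifted ZT6 replicate 1.

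Of 46 nuclear genes of oxidative phosphorylation 5 rose and 1 fell (13%), and the median change was 0.08. This balance depended on the processing. With GC content and length trends removed 1 was higher and 3 were lower, with a median of 0.02, and in values as deposited 0 were higher and 1 was lower, with a median of -0.01. Ndufb3 (log2 change 0.38, adjusted p = 0.0265), Ndufa1 (0.27, 0.024) and Ndufs4 (0.19, 0.0328), subunits of complex I, were higher, calls that all 3 lost in values as deposited (0.0561, 0.0968 and 0.304) and with the trends removed (0.0721, 0.122 and 0.31), and Atp5b, the catalytic β subunit of ATP synthase, was lower, at 206 to 461 FPKM in shifted mothers (median 383) and 391 to 522 in control mothers (median 488; log2 change -0.41, SE 0.11, adjusted p = 0.0271). The count of this list was 0 without ZT0 or ZT18, and ran from 2 (without shifted or control ZT12 replicate 3, or control ZT6 replicate 2) to 12 (without shifted ZT18 replicate 1). Proteasome genes had 2 rises of 25 (8%), close to the share over all genes, Psma4 (0.31, 0.0164) and Psmb1 (0.25, 0.0177). Neither was called in values as deposited (0.0544 and 0.110), and with the GC and length trends removed 1 member was higher and 2 were lower. In antigen presentation B2m, the light chain of class I molecules (0.37, 0.0195), and the class II gene H2-Aa (0.49, 0.0308) rose, 2 of 13 (15.4%). With the trends removed the change of B2m was 0.17 and was not called (0.191), and H2-Aa was not called without the filter (0.0504), in values as deposited (0.0737) or in 8 of 24 fits with 1 library left out. Of 21 interferon response genes limma called 0, with 2 at an unadjusted p under 0.05 and a list median of 0.05.

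**Figure D4:**
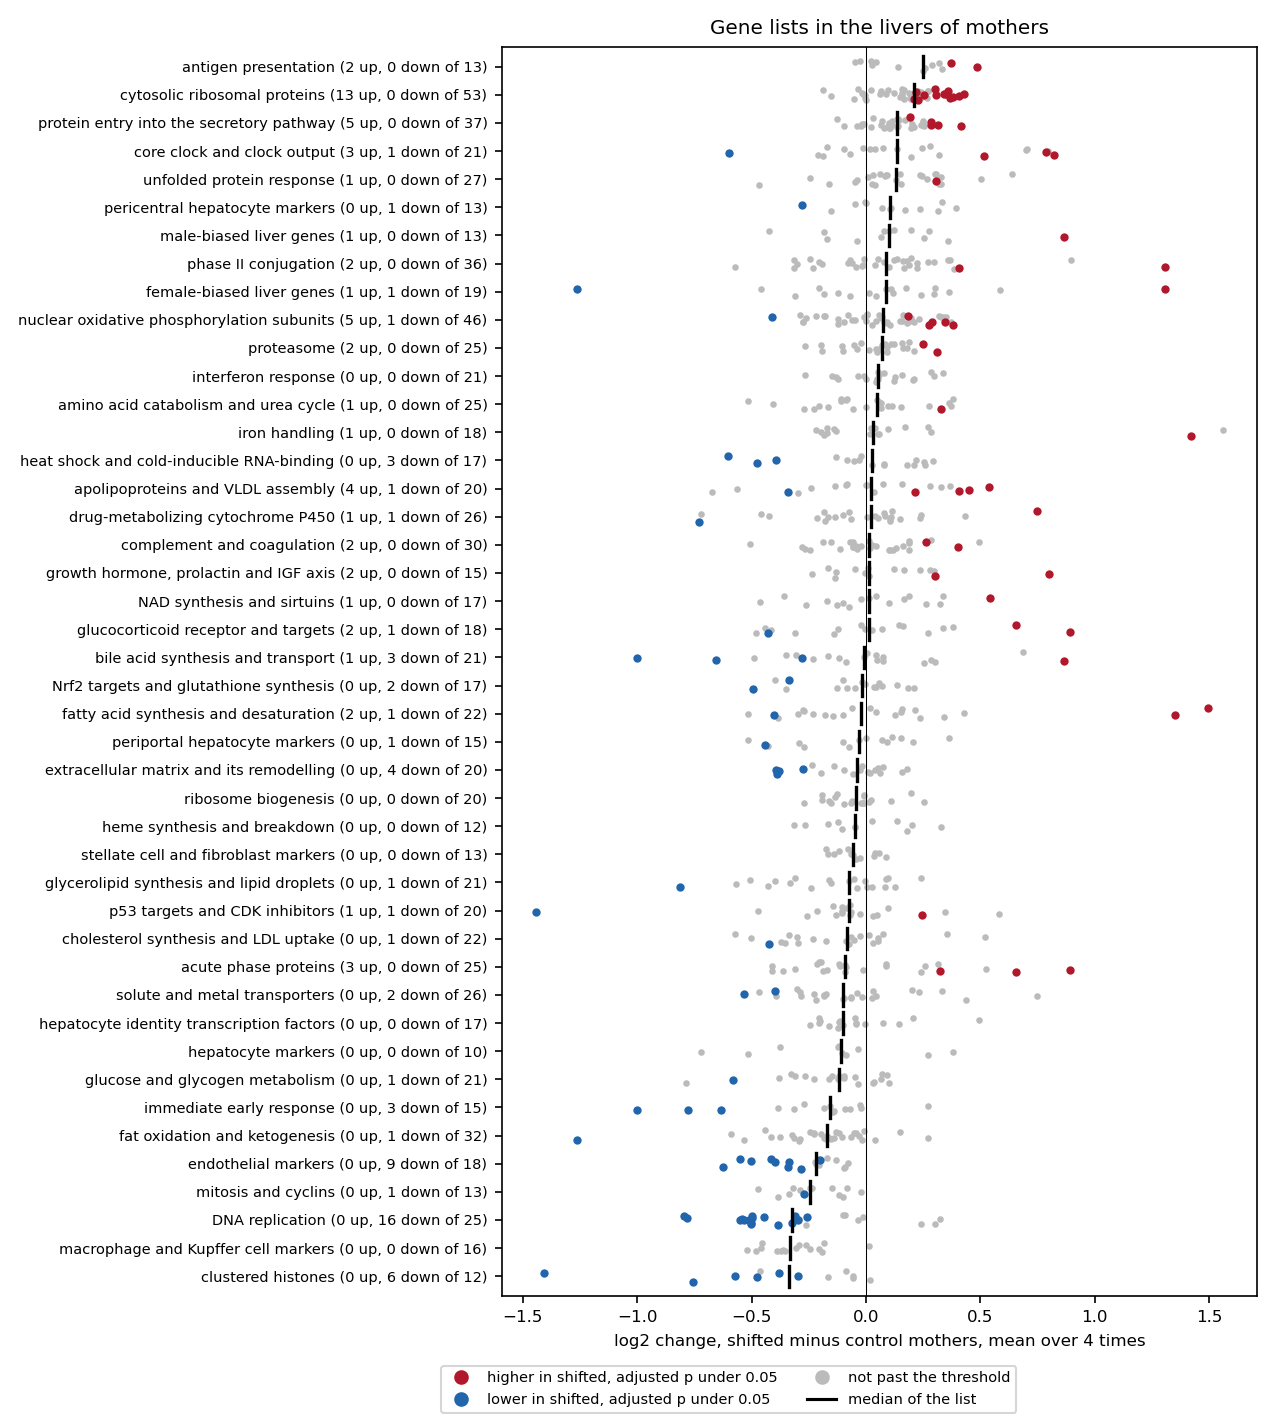
Log2 change (shifted minus control mothers, mean over 4 times) of each measured member of the gene lists with at least 10 measured members, ordered by the list's median (black bar), with members higher in red, lower in blue (limma, adjusted p under 0.05) and not called in grey. DNA replication lies near the bottom, with 16 of 25 members lower and a median of -0.32, and cytosolic ribosomal proteins near the top, with 13 of 53 higher and a median of 0.21.

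Clock genes were called mostly in the interaction test, 13 of 21, against 3 rises and 1 fall in the level comparison (19%). Per2, a repressor of the loop, ran from 0.204 to 21.3 FPKM in shifted mothers (median 7.85) and from 0.378 to 8.52 in control mothers (median 2.59), and its averaged level rose (log2 change 0.79, SE 0.17, adjusted p = 0.00967). Tef, an output factor of the D-box family, rose by 0.52 (adjusted p = 0.0177), and Ciart, a repressor, by 0.82 (0.0142). Arntl fell by 0.60 (adjusted p = 0.0249), from a change of -2.45 at ZT18 to one of 2.02 at ZT6. These averages of 4 times depend on which times enter. The change of Tef was called neither without ZT0 nor without ZT18, and that of Arntl was 0.02 without ZT18 (adjusted p = 0.965).

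Among other liver programmes, calls were at or below the background share in several lists. Cholesterol synthesis had 1 fall of 22 (4.55%), its regulator Srebf2 (log2 change -0.42, adjusted p = 0.015). Glucose and glycogen metabolism had 1 of 21 (4.76%), the branching enzyme gene Gbe1 (-0.58, 0.0487), and amino acid catabolism with the urea cycle 1 of 25 (4%), the urea cycle enzyme gene Otc, which rose (0.33, 0.0204). Gbe1 failed to pass whichever time was omitted, and 18 times out of 24 when single libraries were dropped. The carbamoyl phosphate synthetase gene Cps1 did not pass (-0.52, 0.0916). NAD synthesis had 1 rise of 17 (5.88%), the nicotinamide riboside kinase gene Nmrk1, at 12.6 to 53.5 FPKM in shifted mothers (median 33.3) and 11.1 to 34.0 in control mothers (median 16.7; 0.54, 0.0105). Among complement and coagulation genes C8g (0.40, 0.0196) and Mbl2 (0.26, 0.0217) rose, 2 of 30 (6.67%). Limma called 0 of 10 hepatocyte markers, 0 of 17 hepatocyte transcription factors, 0 of 20 ribosome biogenesis genes and 0 of 12 heme genes, with 1, 2, 6 and 1 at an unadjusted p under 0.05. Over all genes 2920 of 10384 had such a p, so these counts are not read as changes. Of 13 pericentral markers 1 fell, Cyp27a1, and of 15 periportal markers 1 fell, the cadherin gene Cdh1 (-0.44, 0.0214).

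The same schedules acted on fetal liver, so the change in mothers was set against that in fetuses, shifted minus control in each, over all 4 times. The sample labels do not link fetuses to single mothers, and the libraries of both stages were fitted as independent. Of 871 genes called in mothers 74 were called in the same direction in fetuses and 0 in the opposite one, which is 8.5% of the mothers' calls and 16.8% of the 440 called among 12009 genes (3.66%) in fetuses. The difference of the changes was called for 56 of 12497 genes (0.448%) and for 41 of the 871. Among them were the replication genes. Mcm5 averaged 35.6 FPKM in shifted and 34.5 in control fetuses, Mcm7 69.3 and 64.3, Prim1 30.0 and 25.3, and Rrm1 67.8 and 62.6. The changes of Mcm7, Prim1 and Rrm1 in mothers were lower than those in fetuses by 0.64, 0.75 and 0.56 on the log2 scale (adjusted p = 0.0152, 0.0308 and 0.0401). That of Mcm5 was lower by 0.82, given with no test because it reached the filter in mothers through control libraries alone. None of the 4 genes was called in fetuses.

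The endothelial genes Kdr and Oit3 differed as well (adjusted p = 0.0444 and 0.0401), with fetal changes of 0.03 and 0.03, and so did Hist1h1c (0.046), Ghr (0.0444), Fam47e (0.0405), H2-Aa (0.0389) and Ndufa1 (0.0483). Hamp2 (0.0401) and Mup21 (0.0102) averaged less than 1 FPKM in both fetal arms. Scand1, Zfp771, Jund and Tpgs1 fell in fetuses too, by 2.51, 1.15, 0.88 and 0.82 on the log2 scale (adjusted p = 1.22e-06, 7.61e-06, 0.00106 and 0.00222), and their changes were not called different between the stages (adjusted p from 0.14 to 0.778). These 4 genes are GC-rich in either stage, and a difference between tables cannot be told apart from the schedule here. The number of genes called different was unstable, from 13 without control ZT18 replicate 2 to 235 without shifted ZT0 replicate 2.

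**Figure D5:**
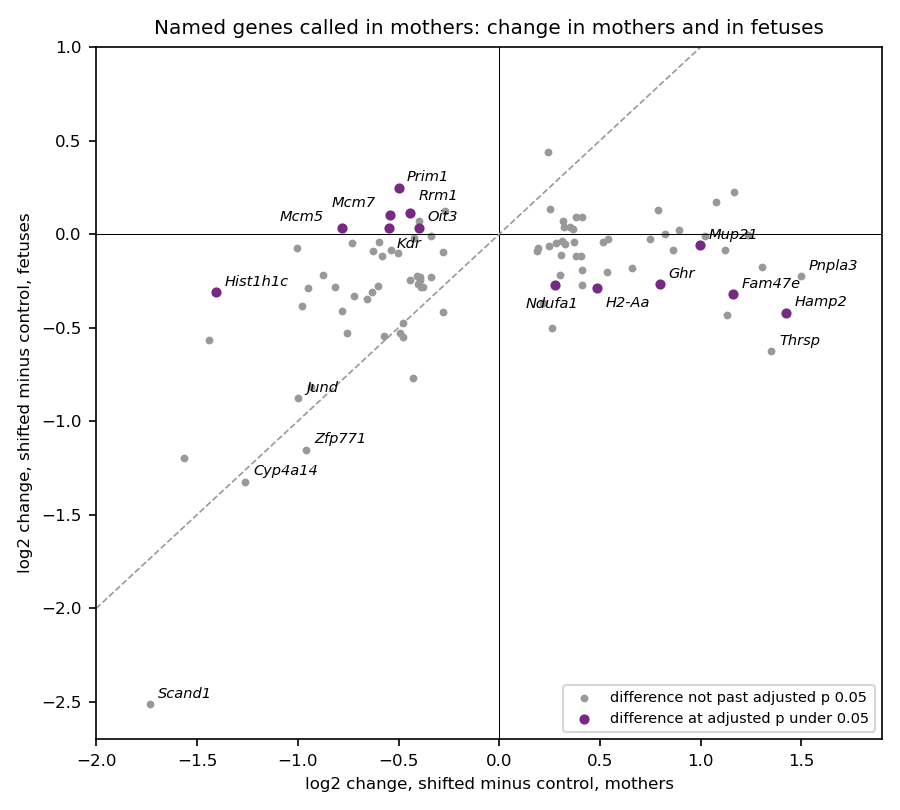
Log2 change in fetuses (vertical) against log2 change in mothers (horizontal), shifted minus control, for the named genes called in mothers, with purple points where the 2 changes differed (limma, adjusted p under 0.05) and a dashed line of equality. The replication genes Mcm5, Mcm7, Prim1 and Rrm1 lie below 0 for mothers and between 0.03 and 0.25 for fetuses, while Scand1, Zfp771 and Jund lie below 0 on both axes. Mcm5 reached the filter in mothers through control libraries alone, so the colour of its point supports nothing.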

How the data were processed

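Liver poly(A) RNA of 24 mothers' libraries, and of 24 fetal libraries for 1 comparison, was read as FPKM that the authors had deposited, in 1 table per arm, made with TopHat2 2.1.1, Cufflinks 2.2.1 and mm10 per the submitters' processing notes. The authors' annotation and filters were not stated there, and the offspring libraries were not used. From the 24883 entries, 280 symbols on several entries were dropped, which left 24066 genes. FPKM were divided by median-of-ratios factors per library, and genes with at least 1 FPKM in at least 3 libraries were fitted as log2(FPKM + 1) in limma 3.58.1 (R 4.3.3, intensity trend), with 1 mean per arm and time. The level contrast averaged the 4 times, the interaction was an F test, and p-values were Benjamini-Hochberg adjusted over all genes, with a threshold of 0.05. Folds were computed from these log2 changes. In simulated data for the level comparison (10266 genes), 97% of 2-fold and 83% of 1.5-fold changes were recovered, and 6 unchanged genes were called. Recovery of changes below 1.5-fold, the size found in 780 of the 871 called genes, was not tested.

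Named genes were, of called genes averaging at least 1 FPKM in an arm, the 12 that rose most and the 12 that fell most, leaving out unnamed models, small RNAs, pseudogenes and joined symbols, and up to 4 called members of each of 52 lists, or the member of smallest p. Members beyond it illustrate a list. Members and lists were chosen with earlier results of these data known. Depth was estimated from FPKM steps in genes with a single transcript of at least 1500 nt. Promoters were searched and figures drawn in Python 3.11.15, and GC content and length came from GENCODE M21.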

Additional observations from a re-analysis of the deposited data

Results flagged for a closer look

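The difference between shifted and control mothers changed with the time of day for 15 named genes (limma F test over the 4 times, adjusted p). These were the clock genes Arntl (8.47e-05), Tef (8.47e-05), Per2 (0.002) and Ciart (0.004), the cell cycle genes Mcm7 (0.000264), Mcm5 (0.000316), Rrm1 (0.000501), Prim1 (0.000546), E2f1 (0.014) and Cdkn1a (0.0238), the endothelial nuclease gene Dnase1l3 (0.00473), the collagen genes Col4a1 (0.0115) and Col4a2 (0.0301), Mt2 (0.00491) and Cyp8b1 (0.0427). Mcm5 reached the filter on low values in mothers through control libraries alone, so its place among the 15 supports nothing.

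The change in mothers differed from that in fetuses for 14 named genes (limma, adjusted p). It was lower in mothers for Mcm7 (0.0152), Prim1 (0.0308), Rrm1 (0.0401), Oit3 (0.0401), Kdr (0.0444), Hist1h1c (0.046) and Cpox (0.0402). Cpox is a heme synthesis gene that rose in fetuses (adjusted p = 0.0209) and was not called in mothers (0.174). It was higher in mothers for Mup21 (0.0102), H2-Aa (0.0389), Hamp2 (0.0401), Fam47e (0.0405), Ghr (0.0444) and Ndufa1 (0.0483). Mcm5, also lower in mothers and counted among the 14, is given with no test. Its place supports nothing here either, since it reached the filter in mothers through control libraries alone.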

How the results depend on the processing

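The count of genes called in the level comparison, 871, was 225 without ZT0, 452 without ZT12 and 94 without ZT18, and ran from 514 (without control ZT18 replicate 1) to 1199 (without shifted ZT18 replicate 1) when 1 library was left out. It was also less by over 1.5 times without control ZT6 replicate 2 (577), control ZT12 replicate 2 (567) and control ZT12 replicate 3 (544), and 707 without shifted ZT18 replicate 3. Scaling moved the split of calls. Values as deposited gave 121 higher and 1134 lower, with the median of all genes at -0.07 on the log2 scale, and upper quartile scaling gave 450 higher and 417 lower, against 359 and 512. The interaction count, 175, ran from 101 (without control ZT18 replicate 2) to 243 (without shifted ZT18 replicate 1) and was 107 without control ZT18 replicate 1 or 3 and 109 without shifted ZT6 replicate 3. The count of genes whose change differed from that in fetuses, 56, was 27 without the filter on low values and 92 in values as deposited, and ran from 13 to 235 with 1 library left out. It was 92 to 235 without shifted ZT0 replicate 2, shifted ZT18 replicate 1, control ZT0 replicate 2 or control ZT6 replicate 1. It was 13 to 36 without shifted ZT0 replicate 1 or 3, ZT6 replicate 2, ZT12 replicate 1 or 2 or ZT18 replicate 3, and without control ZT0 replicate 1, ZT12 replicate 2 or 3 or any ZT18 replicate. Same-numbered libraries of the 2 arms at 1 time had a median correlation of -0.08 in their deviations (12 pairs, -0.23 to 0.17). Deviations from means of 3 libraries cannot show that such libraries shared no handling, so pairing was not settled. A replicate block gave 796, 164 and 73 genes for these 3 results. In the level comparison 97 of the 110 named genes were called. Of these, 12 kept their call in every fit that tested them (Scand1, Hist1h1c, Jund, Zfp771, Tpgs1, Jun, Hist1h2bj, Aqp1, Hist1h4i, Hist1h2be, Cebpd and Hspa1a, of which Cebpd and Hspa1a reached the filter through control libraries alone), 37 lost it with some library left out, 84 without some time, 24 in values as deposited, 22 without the filter, 19 of 95 with GC and length trends removed and 8 with the block. The averaged change of Arntl reversed to 0.0196 without ZT18. List counts under these settings were added after the data were seen. The cause of these shifts was not tested. Low FPKM rest on few fragments, so folds of genes near 1 FPKM are imprecise.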
